A study of Homo sapiens with 60 samples.

Results

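The genes described here are the chemokines and interleukins of the deposited tables, chosen by symbol alone. A gene was taken when its symbol was CXCL, CCL or CX3CL with a number, or IL with a number and at most 1 letter from A to F, and CSF1, CSF2, CSF3, TNF and LIF were added. The rule gave 81 genes of 19712. Their RNA was measured in PC9, HCC827, H1975 (NCI-H1975) and HCC2935, established non-small cell lung cancer (NSCLC) lines with activating EGFR mutations, each grown as monolayers in serum-containing medium without immune or stromal cells. Osimertinib, a third-generation inhibitor of mutant EGFR, was the only drug, at a single dose of 500 nM. Each line had 5 arms of 3 biological replicates, which made 60 libraries in 20 groups. In the DMSO arm, parental cells kept drug-free for 21 days received the solvent for 24 h, and in the acute arm the same kind of cells received 500 nM osimertinib for 24 h. Drug-tolerant persisters (DTPs) were the cells left after 21 days at 500 nM. Short washout cells were DTPs that then spent 24 h without drug, and long washout cells were DTPs left without drug until they proliferated again, which took 7 days in PC9, 4 days in HCC827, 3 days in H1975 and 10 days in HCC2935. The length of the long washout therefore differed between the lines and cannot be told apart from the line.

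Chemokines are small secreted proteins that guide leukocytes through G protein-coupled receptors, and interleukins and colony-stimulating factors signal through cytokine receptors on immune, stromal and epithelial cells. Tumour cells also make many of them. Transcription of the CXC chemokines that carry the ELR sequence motif, which draw neutrophils through CXCR1 and CXCR2, is classically driven by NF-kappaB and AP-1, and that of CXCL10 and CXCL11, which draw T cells through CXCR3, by interferon-responsive factors and NF-kappaB. IL6, IL11 and LIF share the receptor subunit gp130, which signals through JAK and STAT3, a route often discussed in tolerance to EGFR inhibitors. CSF1 and IL34 are the ligands of CSF1R, the receptor that keeps macrophages alive.

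A library held between 34.68 and 47.11 M estimated counts in PC9, 38.71 and 49.13 M in H1975, 17.72 and 25.07 M in HCC827, and 18.64 and 25.58 M in HCC2935, so that depth and line went together. A count of 0 in a single library allows a level of up to 0.0611 to 0.169 CPM, counts scaled to library size, which covers counting error only. Summed levels of 5 epithelial markers ranged from 1831 to 18035 CPM over the libraries, and those of 7 leukocyte markers from 10.4 to 172 CPM, mostly CD68, while PTPRC, the pan-leukocyte marker, reached 4.51 CPM. Some libraries stood closer to another arm of their line than to their own. The correlation over all genes of long washout replicate 3 of PC9 was 0.990 with short washout and 0.972 with its own group, and in HCC827 all 3 DTP and all 3 short washout libraries, with 1 long washout library, were closer to another of these arms, as were the 3 DTP libraries of H1975 and 1 long washout library of HCC2935. Calls of the washout comparisons in PC9 that were lost or gained without long washout replicate 3 are given below.

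Of the 81 genes, 41 reached a mean of at least 1 TPM (the unit of expression that corrects for gene length) in at least 1 of the 20 groups and are called expressed below. The other 40 stayed under 1 TPM in every group, and 8 of these had a count of 0 in all 60 libraries. The members next to this limit were IL33 with a highest group mean of 1.22 TPM, in HCC827, and IL17C with 0.993 TPM, in HCC2935. Expression was broadest in HCC2935 with 33 genes, followed by HCC827 with 30, H1975 with 25 and PC9 with 18. The 14 genes expressed in all 4 lines were CCL5, CXCL1, CXCL16, CSF1, CSF2, LIF, IL6, IL11, IL12A, IL15, IL17D, IL18, IL23A and IL32. A further 12 were expressed in a single line, among them CXCL5 and CXCL6 in HCC827, TNF in PC9, and CXCL17 and IL19 in HCC2935.

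Families differed in how many of their genes were expressed. All 6 ELR CXC chemokines were, all 3 IL-12 family genes, 3 of 4 gp130 cytokines, 2 of 3 interferon-inducible CXC chemokines and 5 of 7 IL-1 family genes. By contrast, only 7 of 24 CC chemokines were expressed, 2 of 6 IL-10 family genes and 1 of 5 IL-17 family genes. Among those under 1 TPM were IL2, IL10, IL21 and IL22, typical products of lymphocytes, and CXCL9, CXCL12 and CSF3. IL4, another lymphocyte product, was expressed in HCC827 and H1975, with a highest group mean of 1.32 TPM in H1975 under acute osimertinib.

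A few genes made up most of this RNA. Under DMSO, CXCL16, a transmembrane chemokine that binds CXCR6, led in PC9 with a mean of 84.2 TPM and in HCC2935 with 259 TPM, which was 44.2% of the summed TPM of all 81 genes in that line. LIF followed in PC9 with 53.1 TPM and led in H1975 with 39.8 TPM, ahead of IL11 with 34.4 TPM. HCC827 was led by CXCL5, a neutrophil chemokine, with 42.0 TPM, close to CXCL16 with 37.8 TPM. The summed level was 230 ± 2.77 TPM (SD, n = 3) in PC9 under DMSO and 353 ± 14.8 TPM in its DTPs, with 512 ± 13 TPM after short washout. In HCC827 it was 237 ± 18.9 TPM under DMSO, 530 ± 75.8 TPM under acute osimertinib and 515 ± 220 TPM in DTPs, the last with a wide spread. In H1975 the sum was 190 ± 13.7 TPM under DMSO and 284 ± 13.3 TPM in DTPs, and in HCC2935 it was 588 ± 111 and 653 ± 159 TPM, which overlap.

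**Figure D1:**
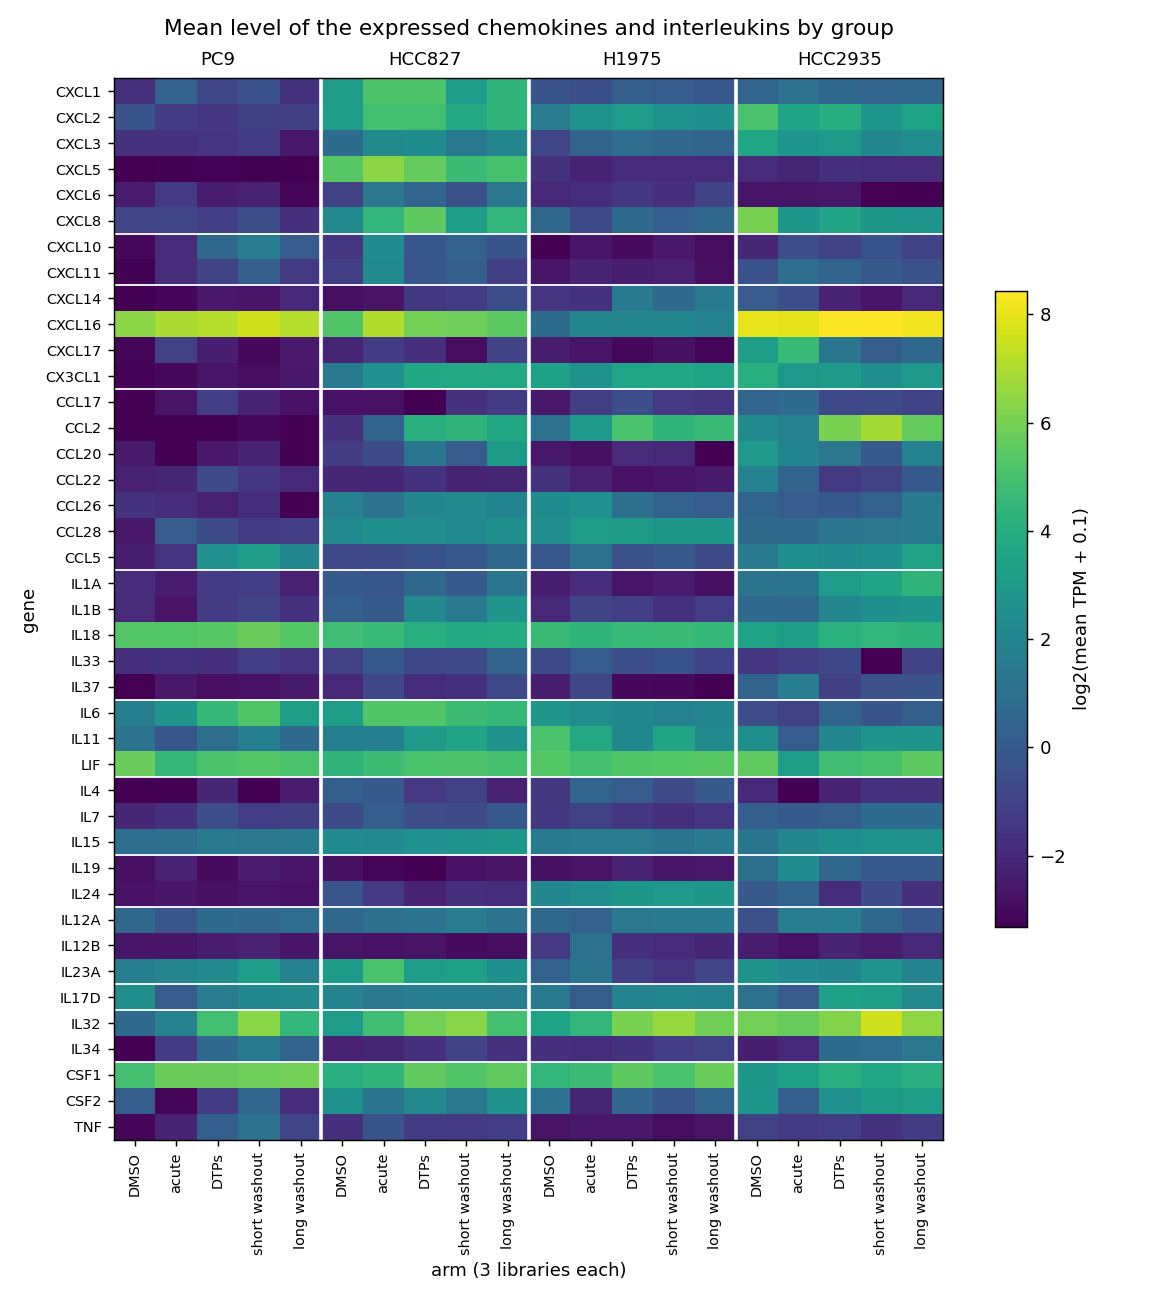
Level of the 41 expressed genes (rows, ordered by family) in the 20 groups (columns, 5 arms in each of 4 lines), as log2 of the mean TPM of 3 libraries plus 0.1. CXCL16 is bright in every arm of PC9 and HCC2935, CXCL5 in HCC827 alone, and CCL2 is bright in the DTP and washout columns of HCC827, H1975 and HCC2935 but at the floor in PC9.

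Each arm was compared within its line by edgeR's quasi-likelihood F-test on the counts, with p-values adjusted over all genes tested and calls at an adjusted p under 0.05. The fold changes below are on the log2 scale with their standard error, and levels are CPM in replicates 1, 2 and 3. The filter on low counts left 27 of the 81 genes in PC9, 33 in HCC827, 35 in H1975 and 36 in HCC2935. It took all 5 arms together, so a member almost absent under DMSO could pass through other arms. Against DMSO such a member could only be called higher. Called from at most 3 counts under DMSO were CXCL10, CXCL11, IL16, IL34 and TNF in PC9 and CXCL12 and CXCL14 in HCC827. The others were IL20 in H1975 and IL16 in HCC2935. Shares over all genes came from the same filter. In bulk RNA, a change in the share of cells that express a gene and a change in RNA per cell cannot be told apart.

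Under acute osimertinib, 7 members rose and 5 fell in PC9, where 34.5% and 31.7% of all genes tested were called higher and lower. In HCC827, 9 members rose and 0 fell, against 18.7% and 20.2% of all genes. DESeq2 and limma were run as well, and at an unadjusted p under 0.05 edgeR had 13 higher and 0 lower. In H1975, 7 rose and 4 fell (27.8% and 23.8% of all genes), and in HCC2935, 5 rose and 7 fell (24.9% and 22.2%). The median log2 fold change over the members tested was 0.34 in PC9 and 0.76 in HCC827, beside 0.07 and 0.02 over all genes, and 0.30 in H1975 and -0.17 in HCC2935, beside 0.10 and 0.07. Higher calls outnumbered lower calls among the members in PC9 and H1975, as they did over all genes. In both lines the members' share of higher calls was below that of all genes. In HCC827 higher calls outnumbered lower calls among the members but not over all genes. The reverse held in HCC2935.

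In DTPs against DMSO, 13 members rose and 4 fell in PC9 (35.7% and 33.5% of all genes), and 11 rose and 1 fell in HCC827 (23.0% and 20.4%), the single lower gene being IL18. In H1975, 10 rose and 4 fell (26.0% and 25.7%), and in HCC2935, 10 rose and 10 fell (27.0% and 25.8%). The median log2 fold change of the members was 0.55 in PC9, 1.07 in HCC827, 0.26 in H1975 and -0.09 in HCC2935, beside 0.06, 0.03, 0.02 and 0.04 over all genes. These counts and medians include the members that could only be called higher. CSF1 was the only member called higher in DTPs of all 4 lines, and CCL2 and IL32 were each called higher in 3.

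**Figure D2:**
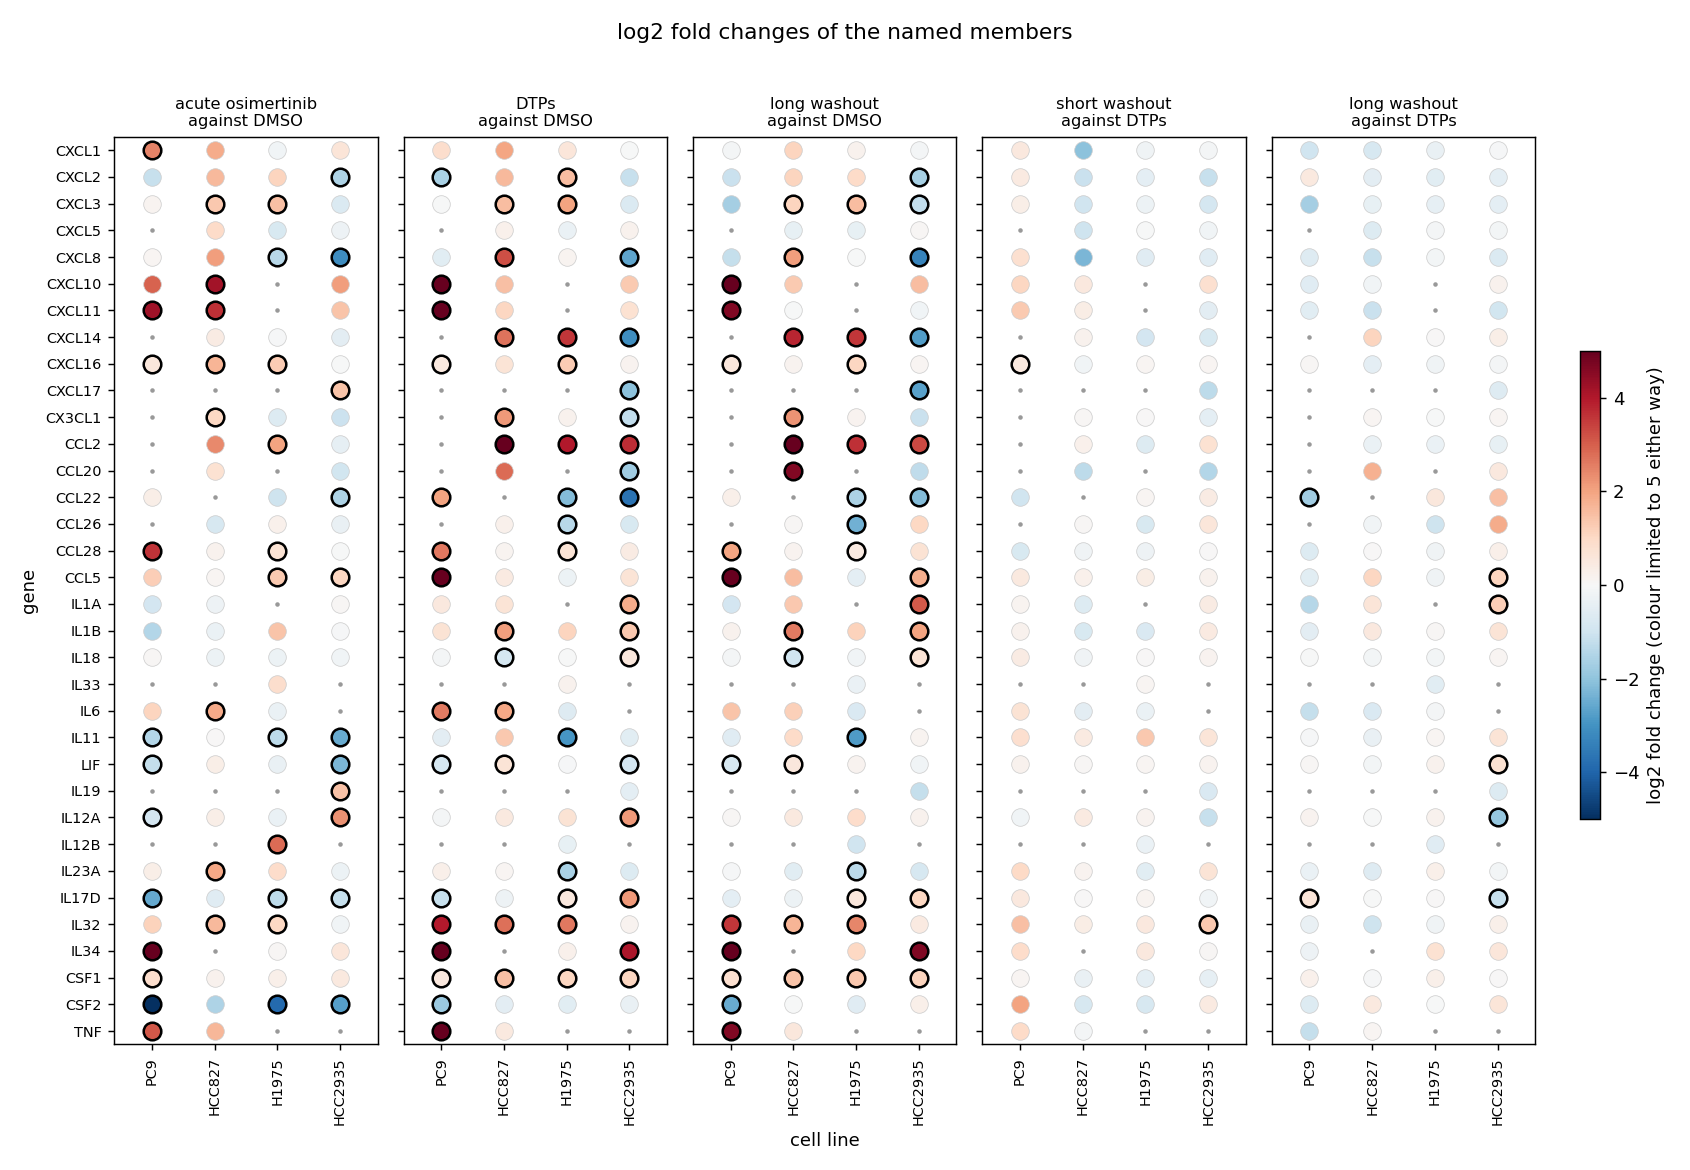
Log2 fold change of the 34 members under the naming rule (rows) in each comparison and line (columns). Colour runs from blue (lower) to red (higher) and is limited to 5 in either direction. Black outlines mark calls at an adjusted p under 0.05 and grey dots mark genes that the filter left out in that line. Reds outnumber blues in the DTP columns of PC9 and HCC827, and the washout columns of HCC827 and H1975 against DTPs hold no outline.

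Among the 6 ELR chemokines, which attract neutrophils, CXCL8 moved in opposite directions in HCC2935 and HCC827. This best known of them stood at 31.4, 37.0 and 97 CPM in HCC2935 under DMSO, at 6.80, 5.00 and 6.31 CPM under acute osimertinib and at 18.4, 4.39 and 3.67 CPM in DTPs. All 3 acute and all 3 DTP libraries lay below all 3 DMSO libraries, and the log2 fold changes were -3.16 ± 0.54 (adjusted p = 0.00018) and -2.63 ± 0.52 (adjusted p = 0.00051). CXCL8 was still low after the 10-day washout, at 4.86, 7.76 and 3.53 CPM, which was -3.34 ± 0.54 relative to DMSO (adjusted p = 0.00014). In H1975 it fell under acute osimertinib by 1.4 ± 0.48 on the log2 scale (adjusted p = 0.024), a call lost without DMSO replicate 2 (-1.32), acute replicate 1 (-1.34) or acute replicate 3 (-1.11). In HCC827 the gene went the other way. Its level was 5.76, 3.81 and 5.22 CPM under DMSO, 18.6, 19.4 and 25.1 CPM with acute osimertinib and 7.63, 117 and 12 CPM in DTPs. The acute libraries lay above all DMSO libraries, with a log2 fold change of 2.08 ± 0.80 that missed the threshold (adjusted p = 0.052). The DTP increase of 3.23 ± 0.82 passed it (adjusted p = 0.0055) but rested on DTP replicate 2, without which it was 1.02 (adjusted p = 0.098).

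The same DTP library was high for its neighbours too. CXCL1 in HCC827 was at 5.56, 3.86 and 7.67 CPM under DMSO, 20.1, 22.2 and 21.0 CPM with acute osimertinib, and 5.29, 56.1 and 3.84 CPM in DTPs. CXCL2 was at 5.35, 7.18 and 5.81 CPM, then 16.9, 15.3 and 25.0 CPM, then 5.54, 43.4 and 6.71 CPM. For both genes the acute libraries were uniformly above DMSO, and DTP replicate 2 stood far above the other DTP libraries, which overlapped DMSO. The acute log2 fold changes were 1.87 ± 0.79 (adjusted p = 0.076) for CXCL1 and 1.63 ± 0.64 (adjusted p = 0.056) for CXCL2 with all libraries in the fit. Without DTP replicate 2 the sizes were 1.87 and 1.63, and both were called (adjusted p = 0.0045 and 0.0037), as was CXCL8 at 2.08 (adjusted p = 0.0017) and CXCL5 at 0.95 (adjusted p = 0.023). Leaving out DTP replicate 1 or 3 also brought CXCL1 (1.87 and 1.89), CXCL2 (1.63 and 1.64) and CXCL8 (2.08 and 2.1) past the threshold. Long washout replicate 3 did so for CXCL8 (2.08) and short washout replicate 2 for CXCL2 (1.63). In DTPs the changes of CXCL1 and CXCL2 were called only without DTP replicate 1 (2.42 and 2.07) or 3 (2.42 and 2.00) and, for CXCL2, short washout replicate 1 or 2 (1.63 in both). The acute rise of CXCL1 was called in PC9, at 2.47 on the log2 scale, a call lost without acute replicate 3 (1.57). Whether the acute change of CXCL1 differed among the lines was tested and not called.

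CXCL3 was called higher under acute osimertinib and in DTPs of H1975 and HCC827. In H1975 it rose from 0.301, 0.404 and 0.266 CPM under DMSO to 1.10, 1.02 and 0.651 CPM with acute osimertinib and to 1.47, 1.32 and 1.15 CPM in DTPs. No acute or DTP library overlapped DMSO, and the log2 fold changes were 1.52 ± 0.30 (adjusted p = 0.00063) and 2.01 ± 0.29 (adjusted p = 6.4e-05). CXCL2 also rose in DTPs of H1975, by 1.53 ± 0.46 (adjusted p = 0.012). In HCC827 CXCL3 rose by 1.36 ± 0.43 under acute osimertinib (adjusted p = 0.021) and by 1.54 ± 0.43 in DTPs (adjusted p = 0.0097). The former was lost without DMSO replicate 1 (1.31), DMSO replicate 2 (1.23) or acute replicate 2 (1.25), and the latter without DTP replicate 2 (0.82). CXCL5 was plentiful in HCC827 only, at 87.6, 61.3 and 98.8 CPM in DMSO libraries and 149, 195 and 140 CPM in acute libraries, a change of 0.95 ± 0.47 (adjusted p = 0.12) although the groups did not overlap. CXCL2 fell in HCC2935 under acute osimertinib by 1.56 ± 0.55 on the log2 scale (adjusted p = 0.03), but by 0.74 without DMSO replicate 3, and the call was also lost without acute replicate 1 (-1.28) or acute replicate 2 (-1.61). CXCL1, CXCL2 and CXCL3 are close paralogs, so reads may be split among them.

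**Figure D3:**
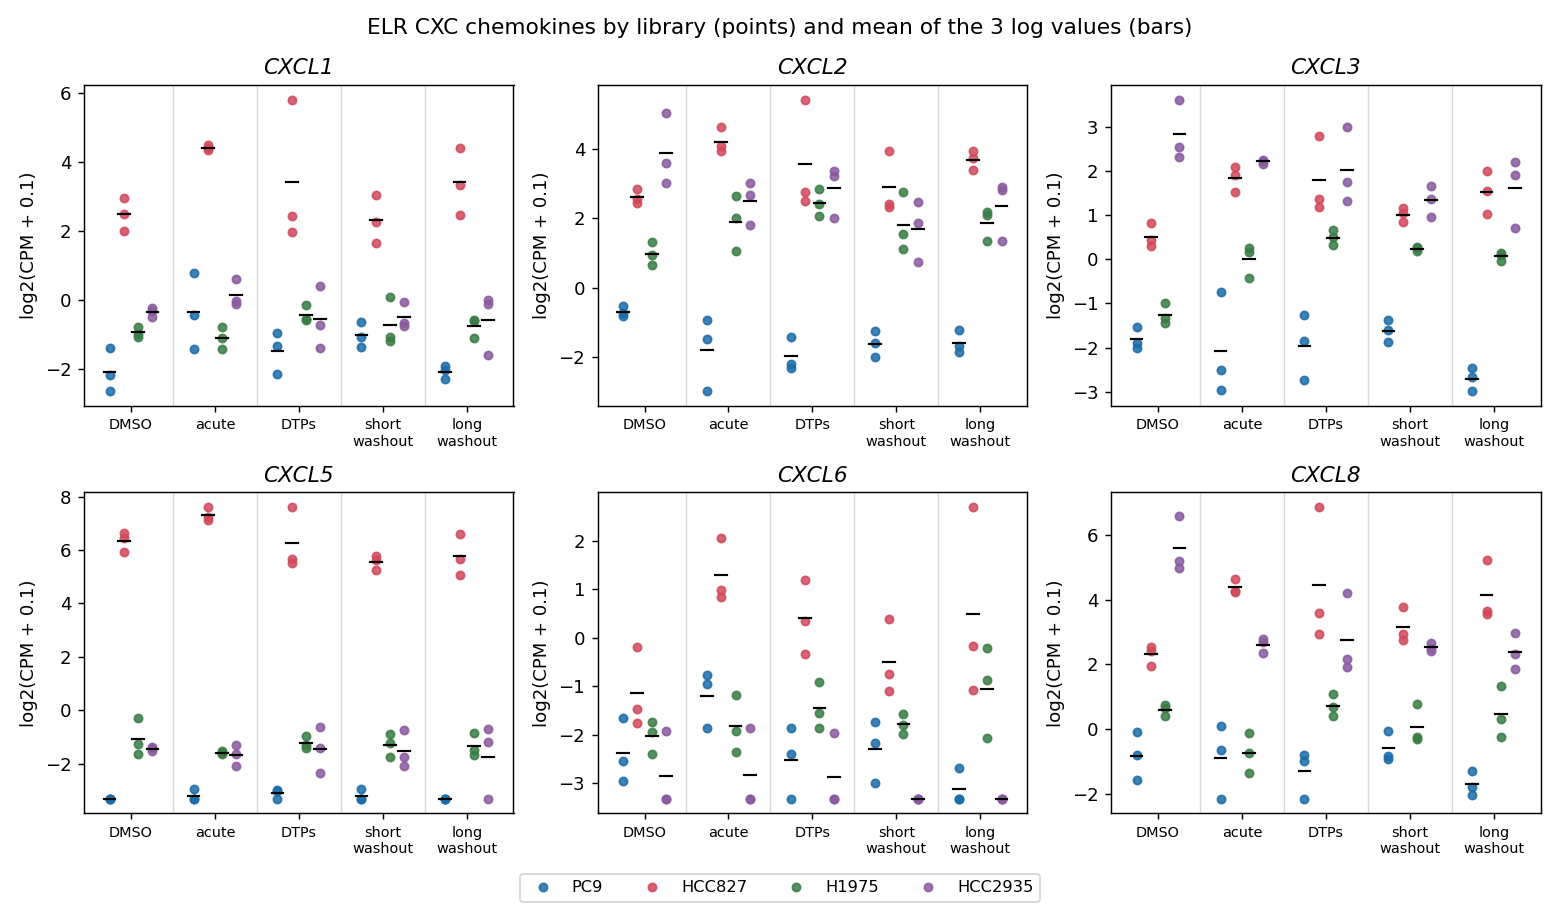
The 6 ELR CXC chemokines, with log2 of CPM plus 0.1 on the vertical axis and the 5 arms on the horizontal axis. Points are libraries, coloured by line, and bars are the mean of the 3 log values. HCC2935 drops for CXCL8 after DMSO, HCC827 is raised under acute osimertinib for all 6 genes, and its DTP replicate 2 stands above the other DTPs for CXCL1, CXCL2, CXCL5 and CXCL8.

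The promoters of these genes are shown because the ELR chemokines, IL32, IL6 and CXCL11 share a letter pattern there. RefSeq (build GRCh38.p14) gave a promoter window, from 250 bases before to 50 bases after the annotated start, for 57 of the 81 members. The kappaB-like pattern GGNNTTTCC was searched on both strands and lay in the windows of 14 of these 57 members, and of 12 of the 30 expressed members with a window, beside 6.26% of all 35116 windows. A member counted when any of its windows matched. Some members had several windows, so the share of members and the share of windows are not directly comparable. Among the ELR chemokines it lay in all 6. The pattern also lay in a window of the expressed members CCL20, CXCL10 and IL17D, which are not shown. Each line below gives 30 bases in the direction of transcription, 5′ to 3′, with the match in capitals.
CXCL8, chr4:73740468-73740497, plus strand: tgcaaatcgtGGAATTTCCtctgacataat
CXCL6, chr4:73836579-73836608, plus strand: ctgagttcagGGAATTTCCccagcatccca
CXCL1, chr4:73869305-73869334, plus strand: tggaactccgGGAATTTCCctggcccgggg
CXCL5, chr4:73998748-73998777, minus strand: atgagttcagGGAATTTCCccagcatccca
CXCL3, chr4:74038748-74038777, minus strand: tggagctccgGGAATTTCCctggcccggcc
CXCL2, chr4:74099253-74099282, minus strand: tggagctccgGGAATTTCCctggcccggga
CXCL11, chr4:76036126-76036155, minus strand: actcaaagagGGAAATTCCtgtgccataaa
IL6, chr7:22727118-22727147, plus strand: atcaaatgtgGGATTTTCCcatgagtctca
IL32, chr16:3065295-3065324, plus strand: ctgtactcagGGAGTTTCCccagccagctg

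The capitals are the same 9 letters in all 6 ELR genes and begin 91 bases before the start in CXCL8, 89 in CXCL6, 90 in CXCL5, 78 in CXCL1 and CXCL3 and 77 in CXCL2. CXCL1, CXCL2 and CXCL3 carry another match that begins 53 bases before the start, and the flanks of CXCL6 and CXCL5, and of CXCL1, CXCL2 and CXCL3, are nearly alike. The match of CXCL11 reads the pattern on the opposite strand. The AP-1 pattern TGANTCA lay in a window of 15 of the 57 members, beside 7.71% of all windows. A pattern like the interferon-stimulated response element, TTCNNTTTC, lay in 14 of the 57 members, beside 8.11% of all windows. Here too members with several windows counted when any of them matched. A match is a description of the letters and not a binding site, and its part in the changes of these genes was not tested. No promoter entry was found for the expressed genes CCL2, CCL5, CCL17, CSF1, CX3CL1, CXCL16, IL7, IL15, IL18, IL34 and LIF.

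The interferon-inducible chemokines CXCL10 and CXCL11 rose in HCC827 under acute drug and in PC9 in DTPs. In HCC827, CXCL10 went from 0.208, 0.146 and 0.272 CPM under DMSO to 3.95, 3.32 and 4.81 CPM with acute osimertinib, and stood at 0.610, 0.634 and 0.555 CPM in DTPs. The acute group stood clear of the rest, at a log2 fold change of 4.21 ± 0.59 (adjusted p = 7.3e-05), while the DTP value of 1.52 ± 0.60 missed the threshold (adjusted p = 0.052). That DTP call was made when long washout replicate 2 (1.52) or 3 (1.51), or short washout replicate 1 (1.52) or 3 (1.51), was left out. CXCL11 went from 0.260, 0.244 and 0.635 CPM to 5.06, 3.56 and 6.04 CPM under acute osimertinib, 3.64 ± 0.60 (adjusted p = 0.00028).

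In PC9, CXCL10 was detected by 2 counts over the 3 DMSO libraries and by 129 over the 3 DTP libraries. This was a ratio of 59.0 with an exact 95% counting interval of 16.0 to 493, and edgeR called it higher (adjusted p = 0.00092). The DTP libraries had 1.67, 0.830 and 0.879 CPM and the short washout libraries 2.35, 2.30 and 2.42 CPM, without overlap. CXCL11 had 1 count under DMSO and 51 in DTPs, a ratio of 46.7 (8.01 to 1880, adjusted p = 0.005). Under acute osimertinib CXCL11 had 26 counts, a ratio of 25.4 (4.17 to 1040, adjusted p = 0.024), a call lost without DMSO replicate 1 (3.85 on the log2 scale), DMSO replicate 3 (3.83) or acute replicate 2 (3.90). After 7 days without drug, CXCL10 was at 0.115, 0.104 and 1.97 CPM, so that the library that resembles short washout, replicate 3, set the group's level. Without that library, long washout was below DTPs by 3.30 for CXCL10 (adjusted p = 0.00048) and 3.85 for CXCL11 (adjusted p = 0.0026) on the log2 scale, and with it neither was called (-0.62 and -0.55). Both genes overlap ART3 on the opposite strand, and it is not stated whether counting used strand.

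CXCL16, the leading member by TPM under DMSO in PC9 and HCC2935, rose after 24 h of osimertinib in PC9, HCC827 and H1975. It went from 47.0, 46.4 and 35.6 CPM to 128, 141 and 159 CPM in HCC827 under acute osimertinib, a log2 fold change of 1.72 ± 0.40 (adjusted p = 0.0036) with no overlap. Its rise was 0.55 ± 0.11 in PC9 (adjusted p = 0.0005) and 1.27 ± 0.30 in H1975 (adjusted p = 0.0029), and in HCC2935, where it was highest, the change was -0.01 ± 0.12 (adjusted p = 0.95). In DTPs it was higher in PC9 by 0.48 ± 0.11 (adjusted p = 0.0015) and in H1975 by 1.26 ± 0.30 (adjusted p = 0.0031). In HCC827 DTPs the level fell back to 46.4 and 41.4 CPM in replicates 2 and 3 and was 115 CPM in replicate 1, a difference from DMSO of 0.68 ± 0.39 (adjusted p = 0.18). After 24 h without drug CXCL16 rose again in PC9, from 161, 148 and 136 to 199, 214 and 211 CPM, by 0.49 ± 0.11 (adjusted p = 0.023). This was the only member called in that comparison, and leaving out DTP replicate 2 (0.49) or 3 (0.45), or short washout replicate 1 (0.52), 2 (0.50) or 3 (0.48), ended the call without changing its size.

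CX3CL1, CXCL14 and CXCL17 act on monocytes, dendritic cells and mucosal myeloid cells. CX3CL1 rose in HCC827 from 9.45, 5.61 and 9.75 CPM under DMSO to 11.1, 24.0 and 16.9 CPM with acute osimertinib and 33.1, 45.7 and 30.4 CPM in DTPs, and 33.0, 36.1 and 47.4 CPM remained after long washout. The DTP increase was 2.16 ± 0.30 (adjusted p = 6.4e-05) and the acute increase 1.05 ± 0.30 (adjusted p = 0.013), the acute call being lost without DMSO replicate 2 (0.83) or acute replicate 2 (0.77). In HCC2935 the same gene fell in DTPs by 1.23 ± 0.47 on the log2 scale (adjusted p = 0.037), with overlapping groups. That call was lost without DMSO replicate 1 (-1.2) or 3 (-1.12), or DTP replicate 2 (-0.92) or 3 (-0.86). CXCL14 had contrasting directions as well. It rose in H1975 DTPs from 0.1, 0.561 and 0.244 CPM to 2.49, 1.95 and 6.36 CPM (3.57 ± 0.60, adjusted p = 0.00019) and fell in HCC2935 DTPs from 1.03, 0.651 and 1.34 CPM to 0.0837, 0.194 and 0.0471 CPM (-3.10 ± 0.71, adjusted p = 0.0016). In HCC827 it had 3 counts under DMSO and 21 in DTPs, a ratio of 7.00 with a counting interval of 2.09 to 36.6, and its call there (adjusted p = 0.039) was lost without DMSO replicate 1 (2.21) or 3 (2.12) or DTP replicate 1 (2.19) or 2 (2.89). The HCC827 call was also lost, with the size at 2.70 each time, without acute replicate 1, long washout replicate 1 or 2, or short washout replicate 2. CXCL17, expressed in HCC2935 only, changed direction with time. It was at 3.74, 4.00 and 7.60 CPM under DMSO, 12.2, 12.3 and 15.3 CPM with acute osimertinib (1.41 ± 0.35, adjusted p = 0.0035) and 1.42, 1.63 and 0.518 CPM in DTPs (-2.07 ± 0.38, adjusted p = 0.00027).

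Among the CC chemokines, CCL2 (GRCh38, chromosome 17, 34255218 to 34257203), the main attractant of monocytes, had the largest gains in persisters. In HCC827 it went from 0.104, 0.195 and 0 CPM under DMSO to 9.71, 7.41 and 4.02 CPM in DTPs, a log2 fold change of 6.11 ± 0.87 (adjusted p = 7.3e-05). In H1975 it went from 1.12, 0.987 and 0.509 CPM through 3.29, 2.75 and 4.53 CPM under acute osimertinib (2.01 ± 0.28, adjusted p = 3.9e-05) to 17.3, 11.7 and 13.9 CPM in DTPs (4.02 ± 0.29, adjusted p = 2.4e-07). In HCC2935 it went from 1.77, 1.07 and 2.50 CPM to 49.5, 9.57 and 10.3 CPM in DTPs (3.71 ± 0.59, adjusted p = 7.1e-05). Every DTP library of these 3 lines exceeded every DMSO library. CCL2 was still higher than under DMSO after long washout, by 5.79 ± 0.87 in HCC827 (adjusted p = 0.00013), 3.67 ± 0.29 in H1975 (adjusted p = 4.9e-07) and 3.32 ± 0.59 in HCC2935 (adjusted p = 0.0003). In PC9 a single library of 15, short washout replicate 1, held any count, at 0.0286 CPM. In HCC2935, DTP replicate 1 was high, and without it CCL2 rose further on short washout, by 2.00 (adjusted p = 0.0076), against 0.78 ± 0.49 with it (adjusted p = 0.44).

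Markers of fibroblasts, which also make CCL2, were higher in the same libraries. The summed level of 6 fibroblast markers was 13.8 to 25.7 CPM under DMSO and 66.3 to 144 CPM in DTPs of HCC827, 66.0 to 164 and 114 to 334 CPM in H1975, and 61.1 to 72.1 and 88.8 to 169 CPM in HCC2935. In PC9 the sum was 18.2 to 25.3 and 34.7 to 44.5 CPM. Epithelial markers fell in HCC827 DTPs, 5 of 5, from 7658 to 9321 CPM in sum under DMSO to 2679 to 3846 CPM. In DTPs of HCC2935 4 of 5 were lower (25.8% of all genes), with sums of 9806 to 10781 CPM under DMSO and 6802 to 7611 CPM in DTPs. In H1975 3 of 5 were lower (25.7%), and in PC9 2 were higher and 2 lower (35.7% and 33.5%). Of the 6 fibroblast markers, 5, 4, 3 and 3 were called higher in DTPs of HCC827, H1975, HCC2935 and PC9. Over all genes the shares called higher were 23.0%, 26.0%, 27.0% and 35.7% in that order, and 20.4% were lower in HCC827. COL3A1 reached 23.0 CPM in HCC827 DTPs and 11.1 CPM in HCC2935 DTPs, and at most 0.406 and 0.85 CPM in those of H1975 and PC9. The part of these marker changes in the CCL2 result, and in the other HCC827 persister results, was not tested.

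CCL5, which attracts T cells and monocytes, was the CC chemokine of PC9. It rose from 0.0619, 0.167 and 0.0588 CPM under DMSO to 5.24, 4.71 and 4.84 CPM in DTPs (5.59 ± 0.81, adjusted p = 2.8e-05) after 0.429, 0.175 and 0.112 CPM under acute osimertinib, and reached 6.30, 7.09 and 7.47 CPM after short washout. Long washout libraries held 1.73, 0.752 and 7.54 CPM. Without long washout replicate 3 the level was below that of DTPs by 1.98 on the log2 scale (adjusted p = 0.00097), and with it the difference was -0.57 ± 0.57 (adjusted p = 0.45). In HCC2935 CCL5 rose under acute osimertinib by 1.07 ± 0.33 (adjusted p = 0.013), lost without DMSO replicate 2 (0.97) or 3 (0.88), and stood 1.82 ± 0.32 above DMSO after long washout (adjusted p = 0.00031). In H1975 the acute rise of 1.31 ± 0.42 (adjusted p = 0.018) was lost without DMSO replicate 1 (1.17), DMSO replicate 2 (1.04) or acute replicate 2 (1.17).

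CCL28, a chemokine of mucosal epithelia, rose in PC9 from 0.155, 0.167 and 0.0882 CPM to 1.86, 1.05 and 2.26 CPM under acute osimertinib (3.62 ± 0.58, adjusted p = 6.9e-05) and to 1.11, 0.705 and 0.789 CPM in DTPs (2.65 ± 0.58, adjusted p = 0.001). In H1975 its rise was smaller, 0.72 ± 0.12 (adjusted p = 0.00024) and 0.66 ± 0.12 (adjusted p = 0.00045). CCL22, which draws regulatory T cells through CCR4, went opposite ways. It rose in PC9 DTPs from 0.310, 0.238 and 0.294 CPM to 1.14, 1.31 and 0.924 CPM (2.02 ± 0.44, adjusted p = 0.00099), and fell in HCC2935 DTPs from 4.23, 4.93 and 11.1 CPM to 0.921, 0.389 and 0.235 CPM (-3.68 ± 0.59, adjusted p = 7.2e-05) and in H1975 DTPs by 2.15 ± 0.62 on the log2 scale (adjusted p = 0.0094). None of these groups overlapped. CCL20, the ligand of CCR6, was called higher in HCC827 after long washout, at 1.52, 0.909 and 8.85 CPM against 0.260, 0.0976 and 0.0907 CPM under DMSO (4.64 ± 1.14, adjusted p = 0.0046). CCL26, an eosinophil chemokine, fell in H1975 DTPs by 1.38 ± 0.38 on the log2 scale (adjusted p = 0.0068).

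**Figure D4:**
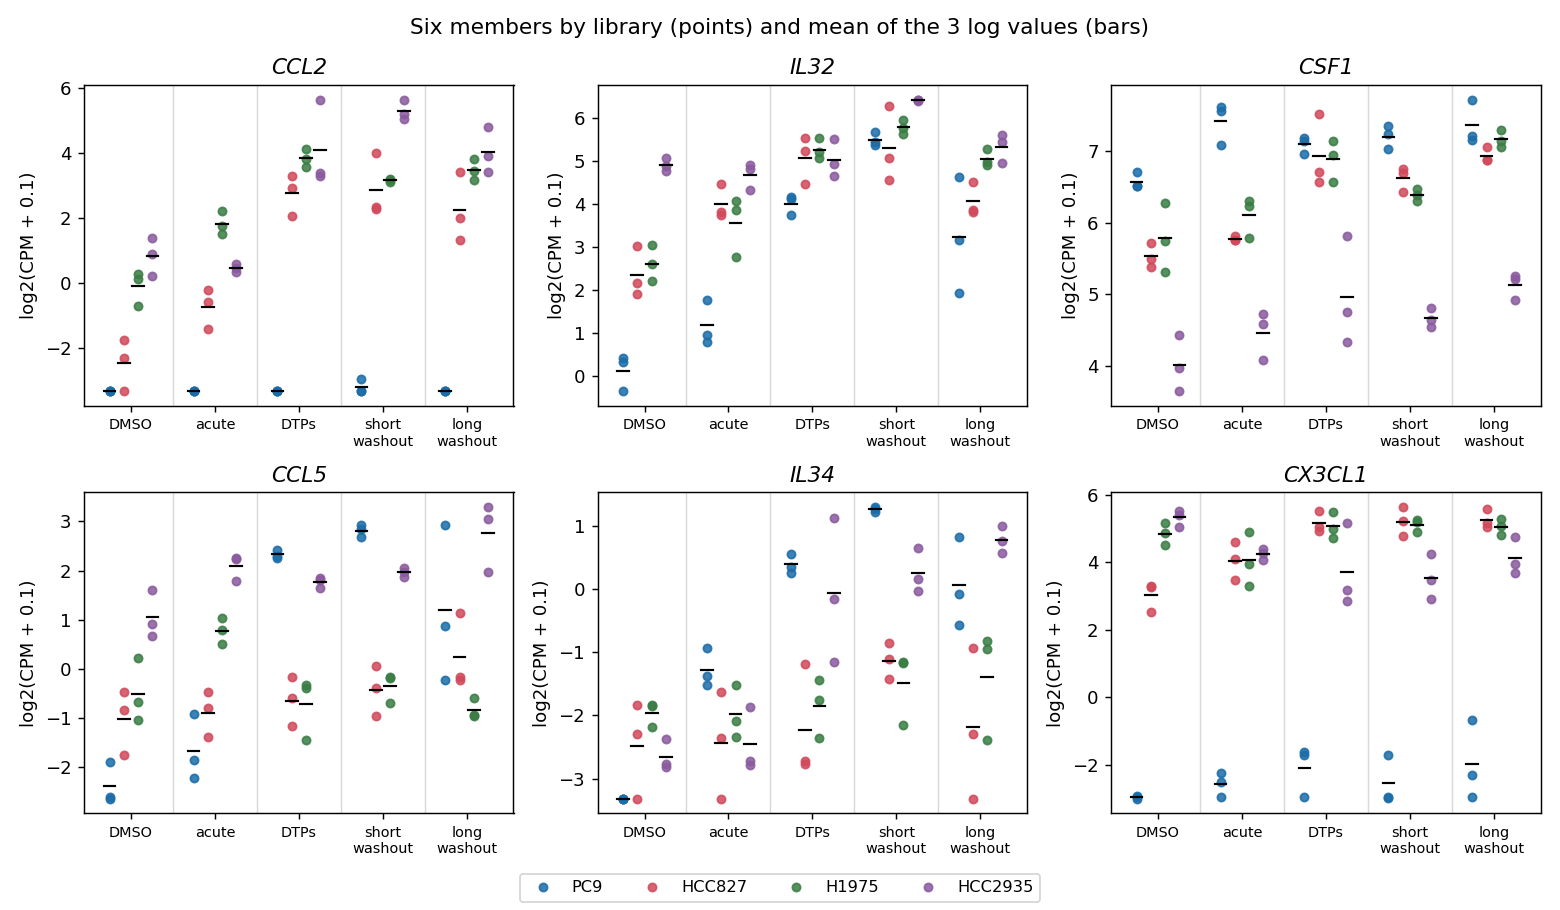
CCL2, IL32, CSF1, CCL5, IL34 and CX3CL1 by arm, with log2 of CPM plus 0.1 on the vertical axis, points for libraries coloured by line, and bars at the mean of the 3 log values. CCL2 climbs from DMSO to DTPs in HCC827, H1975 and HCC2935 and stays at the floor in PC9, while CCL5 and IL34 climb in PC9, whose long washout points are spread widely for CCL5 and IL32.

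IL32 (chromosome 16, 3065297 to 3082192), a cytokine that induces TNF and IL6 in monocytes, rose in DTPs of 3 lines. In PC9 it went from 0.681, 1.14 and 1.24 CPM under DMSO to 17.6, 13.3 and 17.1 CPM in DTPs and 50.6, 42.8 and 41.3 CPM after short washout. In HCC827 it went from 3.63, 7.96 and 4.35 CPM to 13.3, 13.8 and 21.8 CPM under acute osimertinib and 45.9, 21.8 and 37.0 CPM in DTPs. In H1975 it went from 4.51, 8.07 and 5.94 CPM to 33.1, 36.5 and 45.7 CPM in DTPs. The DTP libraries of all 3 lines lay above their DMSO libraries, with log2 fold changes of 3.98 ± 0.56 (adjusted p = 2e-05), 2.75 ± 0.44 (adjusted p = 0.00019) and 2.63 ± 0.28 (adjusted p = 4.7e-06). HCC2935 began high, at 29.4, 27.1 and 33.2 CPM, and its DTPs differed from that by 0.17 ± 0.20 (adjusted p = 0.5). After 24 h without drug it rose to 83.1, 85.6 and 84.9 CPM in HCC2935 (1.34 ± 0.20, adjusted p = 0.0018), the only member called in that comparison of that line. The rise in PC9 after the same 24 h, 1.49 ± 0.45, missed the threshold (adjusted p = 0.065) and passed it without long washout replicate 2 (1.49, adjusted p = 0.011) or 3 (1.51, adjusted p = 0.0027).

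The ligands of CSF1R, CSF1 (chromosome 1, 109910242 to 109930992) and IL34 (chromosome 16, 70579895 to 70660682), both rose in persisters. CSF1 went from 105, 91.1 and 91.4 CPM to 142, 146 and 125 CPM in PC9 (0.55 ± 0.16, adjusted p = 0.0068) and from 45.1, 52.7 and 41.6 CPM to 95.5, 183 and 105 CPM in HCC827 (1.5 ± 0.19, adjusted p = 3.4e-05). It went from 39.8, 77.9 and 53.8 CPM to 123, 95.4 and 141 CPM in H1975 (1.06 ± 0.20, adjusted p = 0.00049) and from 12.4, 15.6 and 21.6 CPM to 56.1, 20.1 and 27.0 CPM in HCC2935 (1.07 ± 0.30, adjusted p = 0.0064). The groups overlapped in HCC2935 alone, where the call was lost without DTP replicate 1 (0.52, adjusted p = 0.068). After long washout CSF1 was above DMSO in all 4 lines, by 0.82 ± 0.16 in PC9 (adjusted p = 0.001), 1.44 ± 0.19 in HCC827 (adjusted p = 5.2e-05), 1.34 ± 0.20 in H1975 (adjusted p = 7.3e-05) and 1.10 ± 0.30 in HCC2935 (adjusted p = 0.007). Under acute osimertinib the rise was called in PC9, at 0.87 ± 0.16 (adjusted p = 0.00022), and in H1975 only without DMSO replicate 2 (0.58, adjusted p = 0.016), the value with all libraries being 0.30. Whether the acute change of CSF1 differed among the lines was tested and not called.

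IL34 had a count of 0 in all 3 PC9 libraries under DMSO. It was at 0.286, 0.424 and 0.251 CPM under acute osimertinib, 1.38, 1.18 and 1.10 CPM in DTPs, 2.38, 2.24 and 2.32 CPM after short washout and 0.576, 0.856 and 1.67 CPM after long washout. Against 3 counts over the DMSO group, these levels were at least 11.7-fold higher under acute osimertinib (adjusted p = 4e-05), at least 43.6-fold in DTPs (adjusted p = 1.7e-06) and at least 37.5-fold after long washout (adjusted p = 1.4e-05). In HCC2935 DTPs IL34 rose from 0.0411, 0.0465 and 0.0927 CPM to 2.09, 0.350 and 0.8 CPM (4.07 ± 0.75, adjusted p = 0.00029), and no change was called in H1975. CSF1R itself was low. It rose in PC9 DTPs by 1.67 ± 0.34 (adjusted p = 0.00048), from 1.15, 0.787 and 0.794 CPM to 2.52, 2.39 and 3.63 CPM, and fell in H1975 DTPs by 1.41 ± 0.21 on the log2 scale (adjusted p = 6.8e-05).

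CSF2, the granulocyte-macrophage factor, fell under acute osimertinib in 3 lines. It went from 1.18, 0.874 and 0.731 CPM to 0.0207, 0.0682 and 0.0965 CPM in H1975 (-3.88 ± 0.72, adjusted p = 0.00043) and from 2.47, 2.23 and 3.94 CPM to 0.483, 0.153 and 0.590 CPM in HCC2935 (-2.75 ± 0.57, adjusted p = 0.00088). In PC9 there were 58 counts under DMSO and 1 under acute osimertinib, a ratio of 59.4 with a counting interval of 10.3 to 2387 (adjusted p = 0.0002). In HCC827 the acute libraries were also below DMSO, at 0.667, 1.04 and 1.51 against 2.80, 4.54 and 2.00 CPM, but the change of -1.53 ± 0.90 was not called (adjusted p = 0.2). In DTPs CSF2 was uneven, at 0.661, 5.22 and 0.509 CPM in HCC827, 0.264, 0.271 and 1.36 CPM in H1975 and 4.15, 1.24 and 1.22 CPM in HCC2935. A single library in each of these lines reached or exceeded the DMSO levels, and none of the 3 changes was called. Without that library CSF2 was called lower in H1975 (-1.80, DTP replicate 3) and HCC2935 (-1.21, DTP replicate 1). In PC9 DTPs CSF2 was 1.84 ± 0.66 lower on the log2 scale (adjusted p = 0.022). That call was lost without DMSO replicate 3 (-1.52), DTP replicate 1 (-1.51) or DTP replicate 2 (-1.64).

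TNF was expressed in PC9 only, where it had 2 counts under DMSO and 142 in DTPs, a ratio of 65.0 with a counting interval of 17.7 to 542 (adjusted p = 0.00027). Its DTP libraries held 1.08, 1.21 and 1.28 CPM, short washout libraries 2.55, 1.83 and 2.52 CPM and long washout libraries 0.144, 0.104 and 1.34 CPM. Without long washout replicate 3, the fall from DTPs to long washout was 3.22 on the log2 scale (adjusted p = 0.00055), and with it -1.17 ± 0.71 (adjusted p = 0.21). The acute rise in PC9 (adjusted p = 0.045) was lost when any one of 10 libraries was left out, with log2 fold changes of 2.16 to 3.51.

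Of the gp130 cytokines, LIF fell under acute drug in 2 lines and IL11 in 3. LIF went from 142, 135 and 136 CPM to 47.9, 46.9 and 83.6 CPM in PC9 (-1.2 ± 0.19, adjusted p = 7.1e-05) and from 70.6, 87.3 and 112 CPM to 13.6, 20.8 and 20.6 CPM in HCC2935 (-2.27 ± 0.24, adjusted p = 2e-06). In DTPs it was partly back, 0.88 ± 0.19 below DMSO in PC9 (adjusted p = 0.00092) and 0.91 ± 0.23 below in HCC2935 (adjusted p = 0.0032) on the log2 scale. In HCC827 LIF rose in DTPs, from 47.2, 56.0 and 39.5 CPM to 62.1, 82.8 and 81.3 CPM (0.70 ± 0.16, adjusted p = 0.0027). LIF overlaps LIF-AS1 on the opposite strand.

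IL11 was highest in H1975, at 39.6, 26.9 and 31.4 CPM under DMSO. It fell there to 9.38, 16.4 and 13.7 CPM under acute osimertinib (-1.30 ± 0.34, adjusted p = 0.0054) and to 4.45, 6.31 and 2.03 CPM in DTPs (-2.94 ± 0.37, adjusted p = 1.7e-05), and was 3.17, 5.70 and 5.04 CPM after long washout. The order from DMSO through acute to DTPs had no overlap between neighbours. The acute fall was 1.46 ± 0.27 in PC9 (adjusted p = 0.00026) and 2.50 ± 0.41 in HCC2935 (adjusted p = 0.00013) on the log2 scale, and in HCC827 the change was 0.00 ± 0.54. In DTPs of those 3 lines IL11 was not called, at -0.54, -0.55 and 1.33 in PC9, HCC2935 and HCC827. Leaving out acute replicate 1 of PC9 (-0.54) or, in HCC827, DTP replicate 2 (1.67) or short washout replicate 1 (1.33) brought the DTP value past the threshold.

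IL6, the best studied of the family, rose in PC9 and HCC827. It went from 3.16, 1.24 and 1.24 CPM to 9.32, 9.31 and 14.9 CPM in PC9 DTPs (2.61 ± 0.67, adjusted p = 0.003), with 24.7, 13.2 and 17.9 CPM after short washout. In HCC827 it went from 4.57, 8.10 and 2.68 CPM to 12.6, 11.4 and 33.2 CPM under acute osimertinib (1.89 ± 0.56, adjusted p = 0.015) and 12.1, 33.3 and 12 CPM in DTPs (1.94 ± 0.56, adjusted p = 0.012). The acute call was lost without DMSO replicate 1 (1.83) or 3 (1.60) or acute replicate 3 (1.24), and the DTP call without DMSO replicate 3 (1.60) or DTP replicate 2 (1.27). In H1975 the changes of -0.34 and -0.65 were not called, and in HCC2935 the filter on low counts left IL6 out.

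**Figure D5:**
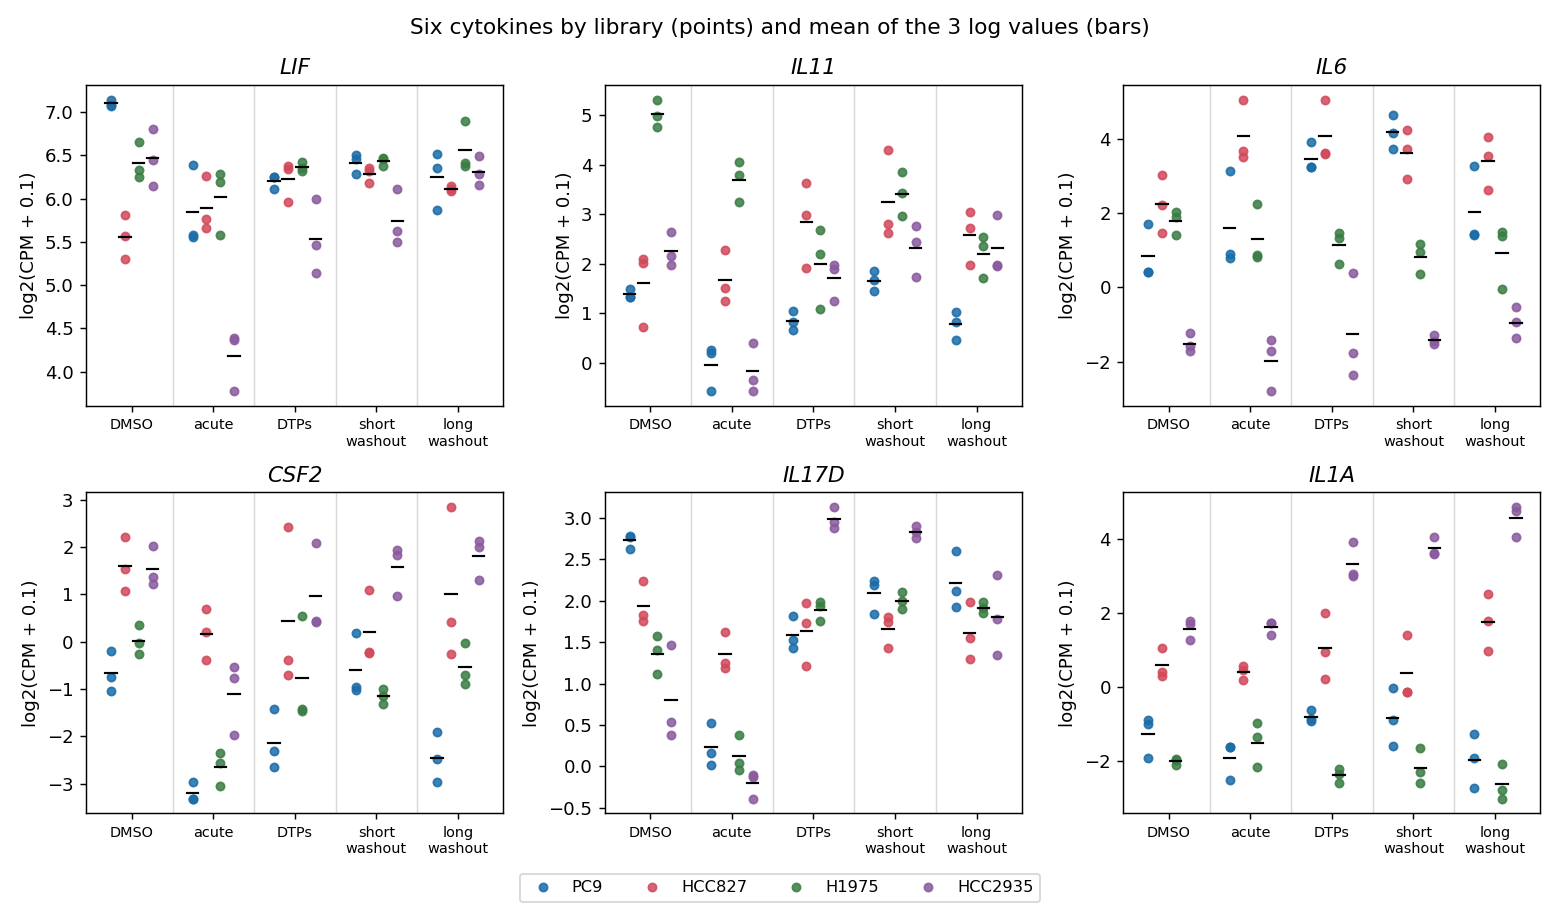
LIF, IL11, IL6, CSF2, IL17D and IL1A by arm, with log2 of CPM plus 0.1 on the vertical axis, points for libraries coloured by line, and bars at the mean of the 3 log values. CSF2 and IL17D dip in the acute column in every line, IL11 descends in H1975 from DMSO to DTPs, and IL1A ascends in HCC2935 to the long washout.

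IL17D, an epithelial member of the IL-17 family, was lower under acute drug in PC9, H1975 and HCC2935. Under acute osimertinib it fell from 6.75, 6.79 and 6.09 CPM to 0.915, 1.02 and 1.34 CPM in PC9 (-2.57 ± 0.23, adjusted p = 3.5e-07), from 2.54, 2.06 and 2.88 CPM to 0.930, 1.2 and 0.868 CPM in H1975 (-1.31 ± 0.20, adjusted p = 9.4e-05) and by 1.14 ± 0.34 in HCC2935 (adjusted p = 0.011). The HCC2935 call was lost without DMSO replicate 1 (-0.69). In HCC827 the acute libraries lay below DMSO as well, at -0.62 ± 0.29 (adjusted p = 0.11). In DTPs the lines parted. IL17D was still low in PC9 (-1.14 ± 0.21, adjusted p = 0.00027) and rose in HCC2935 from 2.67, 1.35 and 1.21 CPM to 7.66, 8.67 and 7.25 CPM (2.18 ± 0.30, adjusted p = 1.8e-05). The H1975 rise of 0.53 ± 0.19 (adjusted p = 0.032) was lost without DMSO replicate 1 (0.53) or 2 (0.39) or DTP replicate 1 (0.51) or 3 (0.48).

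In the IL-1 family, IL1A and IL1B, the alarm cytokines of epithelia, rose in HCC2935 persisters. IL1A went from 3.33, 2.33 and 3.15 CPM under DMSO to 8, 15 and 8.23 CPM in DTPs (1.84 ± 0.28, adjusted p = 4.1e-05) and on to 27.2, 16.7 and 29.2 CPM after 10 days without drug. The last step was itself called, at 1.22 ± 0.25 relative to DTPs (adjusted p = 0.0057), and long washout was 3.06 ± 0.28 above DMSO (adjusted p = 4.5e-07). IL1B went from 1.11, 1.53 and 1.16 CPM to 4.27, 3.89 and 1.36 CPM in those DTPs, overlapping groups with a change of 1.34 ± 0.37 (adjusted p = 0.0059), and was 2.03 ± 0.37 above DMSO after long washout (adjusted p = 0.00036). In HCC827 IL1B was 0.675, 0.488 and 2.04 CPM under DMSO, 1.32, 9.07 and 3.10 CPM in DTPs (2.08 ± 0.66, adjusted p = 0.019) and 5.76, 7.75 and 5.86 CPM after long washout (2.60 ± 0.66, adjusted p = 0.0058). The DTP call was lost without DMSO replicate 1 (1.84) or 2 (1.73) or DTP replicate 2 (1.06). IL18 was at 17.3 to 38.6 CPM under DMSO in PC9, HCC827 and H1975. Its calls in DTPs were -0.87 ± 0.32 in HCC827 DTPs (adjusted p = 0.038) and 0.57 ± 0.19 in HCC2935 DTPs (adjusted p = 0.017). The former was lost without any one of the DMSO libraries (-0.89, -0.78 and -0.96) or DTP replicates 2 (-0.82) or 3 (-0.64), and the latter without DMSO replicate 3 (0.49). After long washout IL18 was again lower than DMSO in HCC827 (-0.99 ± 0.32, adjusted p = 0.021) and higher in HCC2935 (0.68 ± 0.19, adjusted p = 0.0081). The HCC827 call was lost without DMSO replicate 2 (-0.90) or long washout replicate 1 (-0.93) or 2 (-0.78), and the HCC2935 call without long washout replicate 2 (0.48).

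The IL-12 family subunits act as pairs. IL23A, which pairs with the p40 subunit to form IL-23, rose in HCC827 from 6.02, 7.52 and 3.58 CPM to 19.9, 22.3 and 23.4 CPM under acute osimertinib (1.93 ± 0.51, adjusted p = 0.0076) and fell in H1975 DTPs by 1.62 ± 0.41 on the log2 scale (adjusted p = 0.0043). IL12B, which encodes p40, rose in H1975 from 0.501, 0.291 and 0.930 CPM to 2.71, 4.54 and 4.92 CPM under acute osimertinib (2.82 ± 0.45, adjusted p = 0.00013). In DTPs it was back at 0.352, 0.329 and 0.622 CPM, within the DMSO range. IL12A, which encodes p35, rose in HCC2935 from 0.411, 0.233 and 0.835 CPM to 1.80, 3.31 and 2.09 CPM under acute osimertinib (2.30 ± 0.56, adjusted p = 0.003) and to 1.00, 3.50 and 2.02 CPM in DTPs (2.15 ± 0.55, adjusted p = 0.0039). In PC9 the acute change of IL12A was -0.93 ± 0.36 (adjusted p = 0.035) with overlapping groups, a call lost without DMSO replicate 3 (-0.56) or acute replicate 2 (-0.73) or 3 (-0.81). IL12A, IL12B and IL17D overlap genes on the opposite strand, as do CCL5, CXCL14, CXCL16, CXCL17, IL6, IL7, IL16, IL18 and IL32.

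Some genes under 1 TPM were called as well and are named after their values were seen. IL16, a T cell attractant, was at a count of 0 under DMSO in PC9 and at least 9.15-fold higher in DTPs, and CXCL12, the ligand of CXCR4, was at least 12-fold higher in HCC827 DTPs than the 3 counts allowed under DMSO. IL20 had 2 counts under DMSO and 36 in DTPs of H1975, a ratio of 18.1 with a counting interval of 4.66 to 155. IL17C had 37 counts under DMSO and 2 in DTPs of HCC2935, a ratio of 19.4 (5.02 to 167) in the other direction. Of the expressed genes outside the naming rule, IL7 rose in PC9 DTPs (1.85), IL15 rose in HCC2935 DTPs (1.22), and IL24 and IL37 fell there (-2.36 and -1.96). CXCL6 rose in HCC827 under acute osimertinib (2.59).

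Short washout asked what 24 h without drug changed. Against DTPs, short washout called 1 member higher and 0 lower in PC9 (3.87% and 2.05% of all genes) and 1 higher and 0 lower in HCC2935 (2.32% and 0.816%), which were CXCL16 and IL32. These member counts are read against shares of all genes that were themselves low. At an unadjusted p under 0.05, 7 members were higher and 1 lower in PC9. DESeq2 called 4 members in PC9 and 1 in HCC2935, and limma 1 in each, and a fit of the 6 libraries compared called 10 in PC9. Without long washout replicate 3 of PC9, which shares the fit, IL23A (1.03), IL11 (0.87), CSF2 (2.05) and IL32 (1.51) passed as well. In HCC827 and H1975 edgeR called 0 members after short washout, against 0.0% of all genes in either direction in HCC827 and 0.0585% higher and 0.0% lower in H1975. At an unadjusted p under 0.05, 0 members were higher and 4 lower in HCC827, and 1 higher and 2 lower in H1975. DESeq2 called 0 and 1, and limma 0 and 0. The 1 gained in H1975 by leaving out DTP replicate 2 was IL11, at 1.75.

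Long washout was compared with DTPs within each line, and a difference among the lines in this comparison was not tested. In PC9, 1 member was higher and 1 lower than in DTPs (20.4% and 16.8% of all genes), namely IL17D (0.65 ± 0.21, adjusted p = 0.028) and CCL22 (-1.73 ± 0.43, adjusted p = 0.0077). The IL17D call was lost without DTP replicate 2 (0.57) or 3 (0.64) or long washout replicate 2 (0.43). Without long washout replicate 3, CCL28 (-1.49), CCL5, CXCL10, CXCL11, IL23A (-1), IL32 (-1.34), IL6 (-2.09) and TNF were all called lower than in DTPs, which took the count of calls from 2 to 10. In HCC2935, 3 members were higher (IL1A, CCL5 and LIF) and 2 lower (IL12A and IL17D), against 6.82% and 4.94% of all genes. Of these 5, only IL1A stayed called without each library in turn. The log2 fold changes of the other 4 over the libraries whose removal ended the call were 0.85 to 1.17 for CCL5, 0.57 to 0.82 for LIF, -1.98 to -1.4 for IL12A and -1.11 to -0.94 for IL17D. The count was lowest, at 1, without DTP replicate 2 or long washout replicate 2 or 3.

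In HCC827 and H1975, edgeR called 0 members between long washout and DTPs, against 0.0% of all genes in either direction in HCC827 and 0.0% higher and 0.0065% lower in H1975. At an unadjusted p under 0.05 there were 0 higher and 1 lower in each, and DESeq2 and limma called 0 members. The DTP libraries of these lines were among those closer to a washout arm than to one another. Set against DMSO instead, long washout had 12 members higher and 1 lower in HCC827 (21.9% and 20% of all genes), 10 higher and 4 lower in H1975 (27.3% and 26.0%), 10 higher and 2 lower in PC9 (23.4% and 21.5%) and 10 higher and 7 lower in HCC2935 (22.5% and 20.8%). These comparisons share their DMSO libraries with those of DTPs. CCL2, CSF1 and IL32 in HCC827 and H1975, and CCL2, CSF1, IL34 and IL1A in HCC2935, were called higher in both. In PC9 the calls of CXCL10 (2.37), CXCL11 (1.29) and CCL28 (1.13) against DMSO were lost without long washout replicate 3, and IL23A (-0.74) was then called lower.

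Differences among the lines were tested in a fit of all 60 libraries, where 46 members passed the filter. The level under DMSO differed among lines for 40 of them (89.3% of all genes tested), the acute change for 16 (41.4%) and the DTP change for 27 (63.9%). With replicate 1, 2 or 3 of every group left out, the acute count was 12, 10 and 10, and the DTP count 24, 18 and 20. Among calls in DTPs, CXCL8 and CX3CL1 were higher in HCC827 and lower in HCC2935, and CXCL14 was higher in HCC827 and H1975 and lower in HCC2935. IL17D was lower in PC9 and higher in H1975 and HCC2935, and CCL22 was higher in PC9 and lower in H1975 and HCC2935. CXCL2 was lower in PC9 and higher in H1975, LIF was higher in HCC827 and lower in PC9 and HCC2935, and IL18 was lower in HCC827 and higher in HCC2935. The change in DTPs differed among the lines for each of these 8 genes. They were picked for opposite calls in the same libraries, so this test is not separate support. Some of the calls within a line were weak. Those of CXCL8 and IL18 in HCC827, CX3CL1 and IL18 in HCC2935 and IL17D in H1975 were lost without certain single libraries, as given above. That of CXCL2 in PC9, -1.61 ± 0.65 (adjusted p = 0.038), was lost without DMSO replicate 1 (-1.68), 2 (-1.64) or 3 (-1.5), DTP replicate 1 (-1.44) or 2 (-1.36), or acute replicate 1 (-1.61), and that of CXCL14 in HCC827 rested on 3 and 21 counts.

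Receptors and inhibitors of these ligands were counted from lists. Of 21 chemokine receptors, 9 passed the filter in PC9, 7 in HCC827, 9 in H1975 and 6 in HCC2935. In DTPs 4 were higher and 1 lower in PC9 (35.7% and 33.5% of all genes), and 1 higher and 1 lower in HCC827 (23.0% and 20.4%). In H1975 3 were higher and 0 lower (26.0% and 25.7%), and in HCC2935 2 higher and 0 lower (27.0% and 25.8%). ACKR3, an atypical receptor that scavenges CXCL11 and CXCL12, was higher in DTPs of all 4 lines. It went from 13.9, 12.6 and 10.8 CPM to 88.5, 67.2 and 101.9 CPM in PC9 (2.81 ± 0.21, adjusted p = 1.7e-07), and by 8.27 ± 0.72 in HCC827 (adjusted p = 9.7e-07), 3.41 ± 0.34 in H1975 (adjusted p = 2.6e-06) and 6.47 ± 0.71 in HCC2935 (adjusted p = 1.9e-06). CXCR6, the receptor of CXCL16, was lower in DTPs of PC9 and HCC827. CXCR4 was close to 0 in PC9, HCC827 and H1975 and rose in HCC2935 DTPs, to 4.02, 2.18 and 3.20 CPM from 0.616, 0.558 and 0.0927 CPM (2.88 ± 0.47, adjusted p = 9.6e-05).

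Of 35 cytokine receptors, 15 were higher and 12 lower in PC9 DTPs, 8 and 5 in HCC827, 10 and 7 in H1975, and 7 and 9 in HCC2935, out of 33, 31, 31 and 31 tested. Over all genes, 35.7% were higher and 33.5% lower in PC9 DTPs, and 23.0% and 20.4% in HCC827. The shares were 26.0% and 25.7% in H1975, and 27.0% and 25.8% in HCC2935. The median log2 fold change of this list was 0.23, -0.04, 0.12 and 0.01 in the same order. LIFR, the receptor of LIF, was among the higher ones in all 4 lines, and IL4R among the lower ones. The secreted antagonists IL1RN, IL18BP and IL36RN were all higher in PC9 under acute osimertinib and in DTPs, where 34.5% and 35.7% of all genes were higher. IL1RN, which blocks IL-1 receptors, stood there at 4.52, 7.08 and 6.56 CPM under DMSO, 66.0, 66.2 and 53.8 CPM with acute osimertinib and 20.8, 25.4 and 21.9 CPM in DTPs. In H1975 DTPs IL1RN and IL36RN were lower, at -2.89 ± 0.59 (adjusted p = 0.00091) and -4.90 ± 0.94 (adjusted p = 0.0013).

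Genes that report on the pathways upstream moved beside the ligands. All 6 genes that depend on ERK signalling were lower under acute osimertinib in PC9 and HCC2935, and 5 of 6 in HCC827 and H1975, with median log2 fold changes of -4.25, -3.89, -3.36 and -3.25. In DTPs 5, 6, 3 and 5 of the 6 were lower in the same order of lines, and 1 was higher in H1975 (26.0% of all genes). Over all genes, 31.7%, 22.2%, 20.2% and 23.8% were lower under acute osimertinib in that order. In DTPs 33.5%, 25.8%, 20.4% and 25.7% of all genes were lower. After long washout 5 of the ERK-dependent genes were higher than in DTPs in PC9 (20.4% of all genes) and 4 in HCC2935 (6.82%). In HCC827 and H1975 0 were (0.0% in both). Of 12 NF-kappaB genes other than the ligands, 9 were higher and 1 lower in PC9 under acute osimertinib (34.5% and 31.7% of all genes), 4 and 0 in HCC827 (18.7% and 20.2%), 5 and 1 in H1975 (27.8% and 23.8%), and 2 and 3 in HCC2935 (24.9% and 22.2%). In DTPs 9 were higher and 2 lower in PC9 (35.7% and 33.5%). The other DTP counts were 2 higher and 1 lower in HCC827 (23.0% and 20.4%), 3 and 1 in H1975 (26.0% and 25.7%), and 3 and 3 in HCC2935 (27.0% and 25.8%). Their part in the changes of the ligands was not tested.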

How the data were processed

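mRNA libraries were prepared with a TruSeq kit and sequenced as paired reads. The authors deposited estimated counts per gene, and also log2 of TPM plus 0.01, for 19712 gene symbols in 60 libraries. The submitters' processing notes name HISAT2 2.1.0, Salmon 0.8.2 and hg38. Their roles, the annotation and the strand setting are not given in the sources used here. The deposited estimated counts were rounded to whole numbers. Each line was fitted on its 15 libraries with edgeR 4.0.16 (TMM normalization, filterByExpr, quasi-likelihood F-test) in R 4.3.3, with Benjamini-Hochberg adjustment over every gene that passed the filter. The standard error is the log2 fold change divided by the square root of F. CPM used TMM factors over all 60 libraries. Tests of differences among lines used 1 fit of all 60 libraries. DESeq2 1.42.0 and limma 3.58.1 (on the deposited log2 TPM values) were alternatives. The study's methods state no model for these RNA data.

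The members were taken by symbol alone, but the symbol rule and the gene lists were set with earlier results of these data known. Members given with values had a mean of at least 10 CPM in a group, were among the 2 highest or 2 lowest called log2 fold changes of a comparison with at least 1 CPM in either arm, or stood in a list of well-known cytokines. CXCL6, CXCL12, IL7, IL15, IL16, IL17C, IL20, IL24 and IL37 fell outside this rule and were named after their values were seen, as were the receptors and antagonists given with values.

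The procedure was tested on simulated data with 200 changed genes. These had a mean of at least 20 counts, and no other gene changed between arms. The rates therefore do not cover members with few counts, or data in which a large share of genes changes, as here. In the acute comparison of PC9, HCC827, H1975 and HCC2935 it recovered 74%, 72%, 78% and 82% of the 2-fold changes and 98%, 94%, 95% and 95% of the 4-fold changes, and 5.49%, 5.14%, 3.35% and 3.8% of its calls were false. No 2 libraries agreed within sampling noise. Same-numbered replicates deviated together, with every pair's correlation over 0.1, in 3 of the 20 comparisons, which were short washout against DTPs in HCC827 and H1975 and acute osimertinib against DMSO in HCC2935. The correlations over all comparisons ran from -0.653 to 0.709. The labels call the replicates biological without linking numbers across arms. Positions are from GENCODE release 29 (GRCh38) and promoters from RefSeq. Intervals and limits on counts of 0 cover counting error only.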

Additional observations from a re-analysis of the deposited data

Results flagged for a closer look

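Each value below is the highest minus the lowest log2 fold change of a gene across the lines in which it was tested, for genes whose change differed among the lines by edgeR's quasi-likelihood test of the line by arm interaction over all 60 libraries, at an adjusted p under 0.05. Under acute osimertinib the chemokines so found were CXCL8 (5.233), CCL28 (3.646), CXCL2 (3.182), CCL2 (2.819), CXCL3 (2.225), CX3CL1 (2.117) and CXCL16 (1.729). The cytokines were IL34 (6.564), IL12A (3.232), LIF (2.6), IL11 (2.505), IL23A (2.23), IL17D (1.948) and IL32 (1.786).

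In DTPs the chemokines were CXCL14 (6.677), CCL5 (5.883), CXCL8 (5.863), CCL22 (5.695), CCL20 (4.616), CXCL11 (4.405), CXCL10 (4.372), CX3CL1 (3.391), CXCL2 (3.239), CXCL3 (2.745) and CCL28 (2.498). The cytokines were IL34 (8.269), TNF (5.32), IL11 (4.268), IL32 (3.802), IL17D (3.313), IL6 (3.265), IL12A (2.251), IL23A (1.918), LIF (1.603), IL18 (1.441) and IL1A (1.306). The values of IL34, CXCL10, CXCL11 and TNF include PC9 under DMSO, where they had at most 2 counts, so that these fitted sizes depend on the prior count. Groups of 3 libraries were not tested for single outlying samples.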

How the results depend on the processing

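Of the 153 calls of members given with values, 107 held without each library in turn, 46 were lost at least once, and none changed direction under any alternative. Counts of members called stayed within 1.5 times of the value given under RLE scaling, library size alone and no filter. Requiring at least 10 counts in every library tests fewer genes, and gave 6 acute, 6 DTP, 2 short washout, 1 long washout against DTP and 4 long washout against DMSO calls in PC9. It gave 8 long washout against DMSO calls in HCC827, 9 DTP and 8 long washout against DMSO calls in H1975, and 6 acute, 10 DTP and 11 long washout against DMSO calls in HCC2935. The members that differed among lines were then 5 for the acute change, 5 for the DTP change and 8 for the DMSO level. limma on log2 TPM gave 6, 10, 1 and 6 in PC9 for acute, DTP, long washout against DTP and long washout against DMSO. The 6 libraries of 2 arms alone gave 10 for short washout, 0 for long washout against DTP and 7 for long washout against DMSO in PC9, 15 for acute in HCC827 and 2 for long washout against DTP in HCC2935. All 60 libraries gave 15 for acute in HCC827, and DESeq2 gave 4 for short washout in PC9 and 1 in H1975. At an adjusted p under 0.01 the counts were 0 for short washout and 1 for long washout against DTP in PC9, 5 for acute in HCC827, 9 for long washout against DMSO in H1975, 6, 1 and 11 for acute, long washout against DTP and long washout against DMSO in HCC2935, and 9 for the acute change among lines. Except where stated, the cause was not tested.

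With the replicate number as a block, 3 members in place of 5 were called for long washout against DTPs in HCC2935. In the 3 comparisons where numbers paired the libraries, the block left 0 calls at 0 in HCC827 and H1975 after short washout and took the acute calls of HCC2935 from 12 to 13, adding IL37 (1.54, adjusted p = 0.0435 by edgeR). In the others replicates share only a number. No crossed pairing was run, because groups held 3 libraries.

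Leaving out 1 library at a time, the acute counts ran from 9 to 14 in PC9, 7 to 14 in HCC827, 10 to 15 in H1975 and 9 to 13 in HCC2935. The DTP counts ran from 15 to 18, 8 to 16, 12 to 14 and 16 to 21 in the same order of lines, and those of long washout against DMSO from 9 to 14, 9 to 14, 10 to 14 and 13 to 20. For short washout against DTPs the ranges were 0 to 5, 0 to 0, 0 to 1 and 1 to 2, and for long washout against DTPs 1 to 10, 0 to 0, 0 to 0 and 1 to 5. Members that differed among lines numbered 10 to 12 for the acute change, 18 to 24 for the DTP change and 37 to 41 under DMSO. HCC827 and HCC2935 had the shallowest libraries, and genes with few counts, such as CXCL10, CXCL11 and TNF in PC9 under DMSO, carry wide counting intervals.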
